A study of Mus musculus with 18 samples.

Results

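The genes described are Plekha7, Mns1, Fzd1, Ak1, Speg, Spg11, Gm14085, Dppa3 and Clmp, 9 of the 21734 protein-coding genes in a count table from mouse bone marrow-derived macrophages (BMDMs). They were chosen by name because their counts had been seen to differ in macrophages without miR-146a (KO), by a large or a stable amount, and the question asked of them is which keep their level when the cells meet LPS. All 9 passed the filter on low counts, as did 11357 genes in all, and Plekha7 passed through the KO libraries, the ones in which it is high. The LPS response was called for 3 of the 9, Clmp in every genotype and Gm14085 and Dppa3 in the knockout. Of all tested genes 28.5% were called in wild type, 26.9% in the knockout and 31.2% in the 3′ mutant (3F), and 56.2% in none of them. Because the difference of the knockout from the other genotypes chose the genes, that difference is described below without a test, and tests are given for the LPS response and for the comparison of the other genotypes. These tests share libraries with the comparisons that chose the genes, so they are not independent of that choice.

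BMDMs are macrophages grown from marrow in M-CSF. The marrow came from mice of 6 to 7 months on a 129/B6 mix, 3 of each genotype, and was cultured for 8 to 9 days at 10 ng/ml M-CSF. The paper's mass spectrometry methods name younger mice, although it describes that work as done on fractions of the same replicates. The genotypes, all of them germline alleles, are miR-146 Wild-type (WT), miR-146 Knock-out (KO) and a non-seed swap in which the 3′ part of the microRNA duplex is exchanged between its strands while the seed is kept (3F). Cells of each genotype received fresh medium without LPS (resting) or with LPS at 1 ng/ml, and were harvested 16 h later, which gives 6 groups of 3 libraries. The KO and 3F lines were targeted separately in embryonic stem cells of mixed background, backcrossed to C57BL6/J for a few generations and bred as separate colonies, with WT animals taken from both colonies. An effect of the missing microRNA and any other heritable difference that the KO line carries cannot be told apart here.

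MiR-146a is a microRNA that NF-κB induces when macrophages sense LPS, and it is known for restraining the same pathway by acting on messages of its adaptor proteins. A microRNA finds its targets mainly through its seed, which pairs with matching letters in the 3′ UTR of a message. The mature strand of miR-146a and that of its relative miR-146b, which is encoded on another chromosome, share the seed (bases 2 to 8, in capitals) and differ only at positions 18 and 21, counted from the 5′ end. Both are shown because the seed is what the 3F allele keeps and the KO allele lacks.
mmu-miR-146a-5p: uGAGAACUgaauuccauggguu
mmu-miR-146b-5p: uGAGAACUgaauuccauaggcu
In GRCm38, the same assembly as mm10, mmu-miR-146a-5p lies at chr11:43374435-43374456 on the minus strand and mmu-miR-146b-5p at chr19:46342790-46342811 on the plus strand, both as given by RefSeq. The microRNA itself was not analysed here, since the table holds protein-coding genes alone.

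The longest annotated 3′ UTR of each gene was searched on the sense strand for letters that pair with this seed. A 6mer is GTTCTC, a 7mer adds a matching letter on one side (AGTTCTC or GTTCTCA), and an 8mer is AGTTCTCA. Gm14085 holds an 8mer, Speg and Clmp a 7mer each, and Mns1 only a 6mer, while no 6mer was found in the 3′ UTRs of Plekha7, Fzd1, Ak1, Spg11 and Dppa3. Over all tested genes with a 3′ UTR, 22.2% held a 7mer or 8mer and 4.98% an 8mer. The sites of at least a 7mer are printed 5′ to 3′ with the matched letters in capitals.
Gm14085, chr2:122527472-122527479, plus strand: ggccgctccaagacAGTTCTCAt
Speg, chr1:75431491-75431497, plus strand: cgggcttcaacttggGTTCTCAc
Clmp, chr9:40784710-40784716, plus strand: tatataattctgagcGTTCTCAt
The coordinates cover the capitals alone and come from GENCODE release M21 of GRCm38. These are matches of letters in the annotation and were not measured as binding sites. Gm14085 and Clmp were higher in KO and Speg was lower, as described below, so genes with a match lay on both sides.

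Total counts ran from 4071084, in resting 3F replicate 3, to 19818043. The macrophage markers (Adgre1, Csf1r, Cd68, Lyz2, Itgam and Mertk) were present in every library and summed to between 31000 and 85030 CPM, that is counts per 1000000 reads of TMM-scaled library size, with 31000 to 46990 in resting WT, 59250 to 60400 in resting KO, 41700 to 61300 in resting 3F, 43540 to 56840 in WT with LPS, 68100 to 85030 in KO with LPS and 47780 to 57910 in 3F with LPS. Lyz2 made up most of the sum, at 26460 to 42600 CPM in resting WT and 53040 to 55430 in resting KO, whereas Itgam lay the other way, with 239.2 CPM or more in resting WT and 167.0 or less in resting KO. The part of these marker levels in the results below was not tested. Summed over their markers, fibroblast genes ran from 0.394 to 5.21 CPM and neutrophil genes from 1.52 to 11.2. Epithelial, T cell, B cell, dendritic cell, mast cell, pluripotent and striated muscle lists each stayed under 5 CPM in every library, except that striated muscle genes reached 31.4 CPM in 1 resting 3F library. In bulk libraries, fewer cells of a type and less RNA per cell cannot be told apart. A library of the resting KO group stood apart. Along the line from resting WT (0) to WT with LPS (1), drawn over 3239 genes called for LPS in WT, resting KO replicates 1 and 2 lay at 0.288 and 0.255 and replicate 3 at 0.78. Resting 3F libraries lay between 0.0212 and 0.0632, KO libraries with LPS between 1.21 and 1.31, and 3F libraries with LPS between 0.964 and 1.05. Where leaving out resting KO replicate 3 changed a value or a call by much, both values are given.

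Per kb of exon, the level in resting WT was 11.9 CPM for Spg11, 5.82 for Speg, 4.72 for Ak1, 4.32 for Dppa3, 1.10 for Mns1, 0.629 for Clmp, 0.478 for Fzd1, 0.0644 for Gm14085 and 0.00539 for Plekha7. Spg11, Speg, Ak1 and Dppa3 thus had a clear level in resting WT, whereas Plekha7 was close to absence there. In the text that follows, levels are CPM per library, not per kb, and differences are log2 fold changes with their SE.

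**Figure D1:**
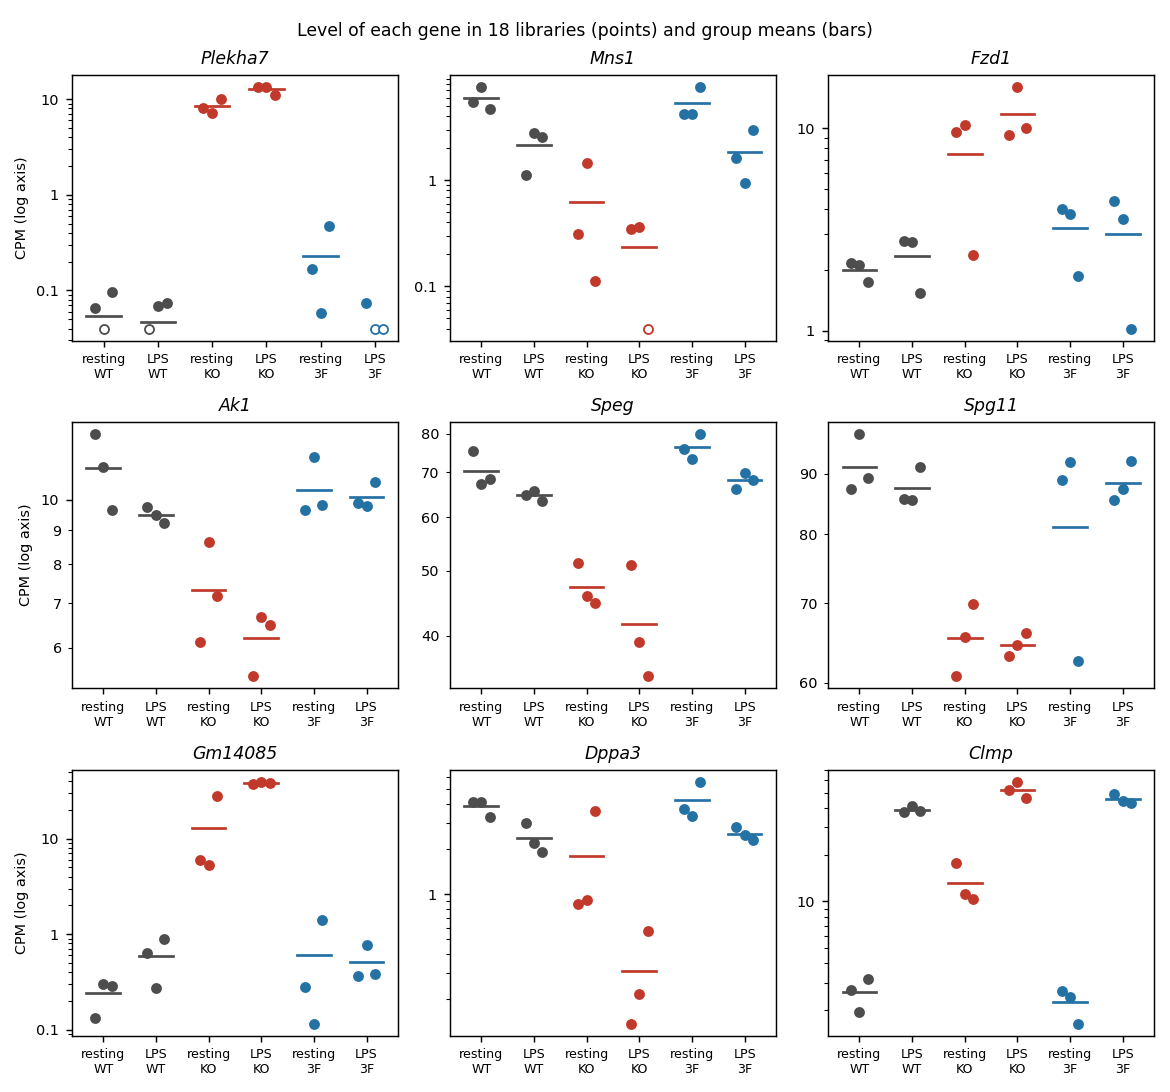
Level of the 9 genes in CPM (vertical log axis, scaled per panel) in each of the 18 libraries (points, replicates 1 to 3 from left to right) with the mean of 3 libraries as a bar; open circles are libraries with 0 counts, drawn at a fixed low position. Plekha7 and Gm14085 stand far above every WT and 3F library in all 6 KO libraries, Ak1 and Speg stand below them in all 6, and Clmp is the gene whose level moves most between resting and LPS libraries in WT and 3F.

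Plekha7 encodes an adaptor of the apical junctions that join epithelial cells, where it binds p120 catenin. The gene (ENSMUSG00000045659) lies at chr7:116123485-116308376 on the minus strand. It had 1, 0 and 1 counts in resting WT, 0, 1 and 1 in WT with LPS, 3, 1 and 2 in resting 3F and 1, 0 and 0 in 3F with LPS. In KO it had 131, 93 and 90 counts at rest and 193, 187 and 156 with LPS, or 8.10, 7.11 and 10.1 CPM and 13.3, 13.5 and 11.1 CPM. Every KO library thus stood above every other library, with a lowest KO level of 7.11 CPM and a highest level elsewhere of 0.468. The ratio of KO to WT in summed counts per library size was 160.0 at rest (exact 95% interval 43.9 to 1330.0) and 270.0 with LPS (74.3 to 2230.0), where the WT groups hold 2 counts each and the intervals cover counting error only. Against 3F the ratio was 53.8 at rest (24.5 to 148) and 502 with LPS (89.8 to 19900.0). The LPS response could be fitted in KO alone, at 0.59 ± 0.27 (95% interval 0.024 to 1.16, adjusted p 0.116 by edgeR's quasi-likelihood test), with the 3 LPS libraries above the 3 resting ones, as in 23.8% of all tested genes. A limma-voom fit with quality weights called it, at 0.69 (adjusted p 0.000427), and without resting KO replicate 3 it was 0.73 ± 0.28 (adjusted p 0.0517). Of 5 epithelial markers, Krt8, Krt18 and Krt19 were at 0 in all KO libraries, and the summed list was 0.185 to 2.13 CPM in resting KO and 0.145 to 0.428 in KO with LPS. The other markers, Cdh1 and Epcam, reached 1.909 and 0.2245 CPM in resting KO, against 0.4835 and 0 in resting WT. Cdh1 reached 2.107 CPM in resting 3F.

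Among 12 genes of the apical junction and of PLEKHA7's partners, 9 were tested and 1 was called in KO against WT and against 3F in either state, Cgnl1, which encodes the junction protein paracingulin. Cgnl1 differed from WT by −1.21 ± 0.30 at rest (adjusted p 0.0183) and −2.12 ± 0.32 with LPS (0.00142). Of all tested genes 9.4% and 4.79% were called against WT in these states, and 12.9% and 3.88% against 3F. The median difference of the tested genes was −0.0048 at rest and −0.015 with LPS, against 0.017 and 0.014 over all genes. For the LPS response, 4 of the 9 were called in WT and in 3F (Plekha4 and Pdzd11 higher, Cgn and Cgnl1 lower) and 5 in KO (Plekha5 and Pdzd11 higher, Cgn, Cgnl1 and Afdn lower), where 28.5%, 31.2% and 26.9% of all tested genes were called in WT, 3F and KO.

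Gm14085 is a predicted gene whose sequence is related to Slc28a2, the adjoining concentrative nucleoside transporter gene. It (ENSMUSG00000079071) lies at chr2:122484941-122528040 on the plus strand. Of the 3691 stretches of 50 bases in its longest transcript, 40.6% also occur in transcripts of Slc28a2, so its counts are uncertain where reads could fit either gene. It had 0.131, 0.301 and 0.290 CPM in resting WT (2, 4 and 3 counts), 0.628, 0.273 and 0.880 in WT with LPS, 0.282, 0.116 and 1.41 in resting 3F and 0.366, 0.767 and 0.385 in 3F with LPS. In resting KO it had 5.93, 5.35 and 27.7 CPM, and with LPS 37.7, 39.5 and 38.1. All 6 KO libraries stood above the 12 others, and resting KO replicate 3 stood close to the LPS libraries. KO exceeded WT by 5.71 ± 0.77 at rest and 6.01 ± 0.65 with LPS, and 3F by 5.14 ± 0.75 and 6.12 ± 0.67. Without resting KO replicate 3 the resting differences were 4.55 ± 0.48 against WT and 3.99 ± 0.46 against 3F.

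The LPS response of Gm14085 was called in KO, at 1.60 ± 0.48 (95% interval 0.59 to 2.61, adjusted p 0.0195, edgeR quasi-likelihood). Without resting KO replicate 3 it was 2.76 ± 0.31 (adjusted p 5.48e-06). The call was lost without resting KO replicate 1 (1.24, adjusted p 0.0918), resting KO replicate 2 (1.23, 0.0845) or LPS KO replicate 2 (1.54, 0.0555), each of which left replicate 3 in the resting group, and also with DESeq2 (1.54, 0.098) or a fit of the KO libraries alone (1.57, 0.109). In WT the response was 1.30 ± 1.11 and in 3F 0.62 ± 1.06, with intervals from −1.04 to 3.65 and from −1.63 to 2.87, too wide to tell a response from none. Slc28a2 had 25.5 ± 2.96 CPM in resting WT, 92.1 ± 97.7 in resting KO and 30.2 ± 1.62 in resting 3F, and 258.3 ± 194.9, 304.9 ± 12.9 and 220.5 ± 50.4 with LPS (SD, n = 3 each). It rose with LPS in every genotype, by 3.34 ± 0.61 in WT (adjusted p 0.000766), 1.74 ± 0.57 in KO (0.0334) and 2.87 ± 0.60 in 3F (0.00204). KO differed from WT by 1.84 ± 0.58 at rest (adjusted p 0.0592) and by 0.24 ± 0.55 with LPS (0.882). The resting KO libraries held 33.3, 38.0 and 204.9 CPM of Slc28a2, and without replicate 3 the resting difference was 0.48 ± 0.41 (adjusted p 0.567) and the response in KO 3.10 ± 0.45 (6.38e-05). Among 7 nucleoside transporter genes 4 were tested, and 0 were called in KO against WT or 3F in either state. In the LPS response, Slc29a1 was called lower in WT and KO and Slc29a3 higher in 3F.

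Clmp encodes an immunoglobulin-type adhesion protein of the CTX family, related to the coxsackie and adenovirus receptor. The gene (ENSMUSG00000032024) lies at chr9:40685962-40785319 on the plus strand. It had 2.69, 1.96 and 3.19 CPM in resting WT, 17.7, 11.2 and 10.3 in resting KO and 2.65, 2.43 and 1.64 in resting 3F. Under LPS its level was 37.8, 40.9 and 38.0 in WT, 51.9, 58.9 and 46.2 in KO and 48.9, 44.4 and 43.0 in 3F. At rest the KO libraries stood apart from both other genotypes, whereas with LPS they overlapped the 3F libraries. KO exceeded WT by 2.35 ± 0.21 at rest and 0.43 ± 0.17 with LPS, and 3F by 2.46 ± 0.22 and 0.20 ± 0.17. Clmp rose with LPS in all genotypes, by 3.90 ± 0.21 in WT (adjusted p 8.83e-09), 1.98 ± 0.18 in KO (1.02e-06) and 4.25 ± 0.22 in 3F (6.41e-09). The LPS response in KO was thus smaller than in WT by 1.92 ± 0.28 on the log2 scale, a value that helped choose the gene and is given as a description. Leaving out resting KO replicate 3 gave −2.06 ± 0.26 for it and 2.49 ± 0.21 for the resting difference from WT. Over all 11357 tested genes 1 (0.00881%) was called for the difference of responses between KO and WT, and it was Clmp. Because this contrast helped choose Clmp, that call is not a test of the gene. Of 11 genes of the CTX family 10 were matched and 4 tested. 0 of them were called for KO in either state or for LPS in WT or KO, and Igsf11 was called lower with LPS in 3F.

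Fzd1 encodes a receptor for Wnt proteins. The gene (ENSMUSG00000044674) lies at chr5:4753839-4758035 on the minus strand. It had 2.17, 2.11 and 1.74 CPM in resting WT, 9.58, 10.4 and 2.36 in resting KO and 4.01, 3.77 and 1.87 in resting 3F. With LPS it had 2.79, 2.73 and 1.54 in WT, 9.30, 16.1 and 9.98 in KO and 4.40, 3.56 and 1.03 in 3F. Resting KO replicate 3 lay among the WT and 3F libraries, and the other 5 KO libraries lay above all 12 of them, from 9.30 to 16.1 CPM against a highest level elsewhere of 4.40. KO exceeded WT by 1.91 ± 0.49 at rest and 2.32 ± 0.47 with LPS, and 3F by 1.14 ± 0.47 and 1.90 ± 0.46. Without resting KO replicate 3 the resting differences were 2.30 ± 0.39 and 1.52 ± 0.38. The LPS response was not called in any genotype, at 0.22 ± 0.52 in WT (adjusted p 0.797), 0.63 ± 0.43 in KO (0.305) and −0.13 ± 0.49 in 3F (0.861), with interval ends from −1.17 to 1.55. In KO it was 0.24 ± 0.35 without resting KO replicate 3, with an interval from −0.51 to 0.98. Among 14 other Wnt receptor genes 6 were tested. 0 were called in KO against WT in either state. At rest Fzd7 was called lower in KO against 3F, at the threshold (−0.72 ± 0.23, adjusted p 0.05 after rounding). In that comparison 12.9% of all tested genes were called. Against WT at rest Fzd7 differed in KO by −0.58 ± 0.23 (adjusted p 0.128). In the LPS response Fzd7 and Lrp5 were called lower in WT, Fzd5, Lrp5 and Lrp6 in KO, and Fzd5 and Fzd7 in 3F.

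Mns1 encodes a structural protein of the axoneme of cilia and of sperm flagella. The gene (ENSMUSG00000032221) lies at chr9:72438011-72462025 on the plus strand and overlaps Tex9 on the opposite strand, while counting was by strand. It had 5.45, 7.61 and 4.64 CPM in resting WT, 0.309, 1.45 and 0.112 in resting KO and 4.18, 4.17 and 7.49 in resting 3F. With LPS it had 1.12, 2.80 and 2.57 in WT, 0.344, 0.362 and 0 in KO and 1.61, 0.931 and 2.95 in 3F. Within each state the KO libraries stood below all WT and 3F libraries, but resting KO replicate 2 reached the lowest LPS libraries of WT and 3F. KO was lower than WT by −3.17 ± 0.63 at rest and −3.14 ± 0.76 with LPS on the log2 scale, and lower than 3F by −2.93 ± 0.64 and −2.81 ± 0.79. These rest on few reads, 25 counts over the resting and 10 over the LPS libraries of KO. The resting difference from WT was −4.60 without resting KO replicate 2 and −2.80 without resting KO replicate 3.

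The LPS response of Mns1 lay at the threshold in WT and 3F. It was −1.45 ± 0.54 in WT (95% interval −2.59 to −0.31, adjusted p 0.0546) and −1.55 ± 0.58 in 3F (−2.77 to −0.33, 0.0511), with all LPS libraries below all resting ones in both. Of all tested genes, 21.6% in WT and 20.1% in 3F had all LPS libraries below all resting ones. Each of the 6 other settings that kept all libraries called it, the adjusted p reaching from 0.00355 to 0.0499 for WT and, for 3F, from 0.00677 to 0.0467. Leaving out a library, it was called only in 3F without LPS 3F replicate 3 (0.0339), with adjusted p up to 0.196 otherwise. With the animal as a block it was −1.49 ± 0.34 in WT (adjusted p 0.00857) and −1.62 ± 0.36 in 3F (0.00677). In KO it was −1.43 ± 0.89 (95% interval −3.31 to 0.46, adjusted p 0.258), and without resting KO replicate 2 it was 0.0070. Of 9 genes of the axoneme and of ciliary docking 1 was tested, and it was not called in any comparison. The 2 genes with the most similar pattern over the 18 libraries were Stmn1 and Qpct (Pearson's r 0.927 for each).

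Dppa3, also named Stella, encodes a maternal factor that protects DNA methylation marks in the early embryo. The gene (ENSMUSG00000046323) lies at chr6:122626410-122630272 on the plus strand, and 17.7% of the 50-base stretches in its longest transcript recur in Dppa3-ps, Gm15620 or Gm47576, so its counts are uncertain. It had 4.14, 4.14 and 3.29 CPM in resting WT, 0.865, 0.918 and 3.59 in resting KO and 3.73, 3.30 and 5.62 in resting 3F. Dppa3 with LPS had 3.00, 2.18 and 1.91 in WT, 0.138, 0.217 and 0.571 in KO and 2.78, 2.46 and 2.31 in 3F. Resting KO replicate 3 lay within the range of resting WT, and the other 5 KO libraries lay between 0.138 and 0.918 CPM, below the lowest level elsewhere of 1.91. The difference of KO from WT was −1.21 ± 0.44 at rest and −2.91 ± 0.56 with LPS, and from 3F −1.27 ± 0.45 and −3.00 ± 0.56. Without resting KO replicate 3 it was −2.11 ± 0.36 from WT and −2.16 ± 0.37 from 3F at rest.

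In KO, Dppa3 fell by 2.41 ± 0.58 with LPS on the log2 scale (95% interval −3.64 to −1.17, adjusted p 0.00573), and all 3 cultures were lower with LPS. Without resting KO replicate 3 the response was −1.51 ± 0.47 (adjusted p 0.0209), while a fit of the KO libraries alone gave −2.47 without a call (0.0695). In WT it was −0.71 ± 0.42 (−1.60 to 0.18, adjusted p 0.229) and in 3F −0.67 ± 0.43 (−1.58 to 0.24, 0.246), with every culture lower with LPS in both. With the animal as a block these became −0.71 ± 0.24 (adjusted p 0.0501) and −0.65 ± 0.24 (0.0703). The response in KO differed from that in WT by −1.70 ± 0.73, or by −0.80 ± 0.55 without resting KO replicate 3, a description since the KO libraries chose the gene. Among 15 genes of DNA methylation and the germline 9 were tested. Uhrf1, which brings the maintenance methyltransferase to replicating DNA, and Dnmt1, that methyltransferase, were lower in KO than in WT with LPS, by −1.58 ± 0.28 (adjusted p 0.00503) and −0.52 ± 0.14 (0.0365). Neither was called in KO against WT at rest or for the difference of the LPS response between KO and WT. In the LPS response Uhrf1 and Dnmt1 were called lower and Tet2 higher in every genotype, and Dnmt3l higher in WT and 3F. Gdf3, whose start is among the closest to that of Dppa3, was higher at rest in KO, exceeding WT by 1.72 ± 0.45 (0.0251).

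Ak1 encodes the cytosolic adenylate kinase, which balances ATP, ADP and AMP. The gene (ENSMUSG00000026817) lies at chr2:32621758-32635058 on the plus strand. It had 12.6, 11.2 and 9.67 CPM in resting WT, 6.12, 8.64 and 7.18 in resting KO and 9.65, 11.6 and 9.83 in resting 3F. Under LPS the level was 9.77, 9.49 and 9.24 in WT, 5.44, 6.66 and 6.49 in KO and 9.89, 9.80 and 10.7 in 3F. The 6 KO libraries lay below the 12 others, with a highest KO level of 8.64 and a lowest level elsewhere of 9.24. The difference of KO from WT was −0.61 ± 0.15 at rest and −0.62 ± 0.15 with LPS, and from 3F −0.51 ± 0.15 and −0.70 ± 0.15. Its LPS response was −0.23 ± 0.15 in WT (95% interval −0.54 to 0.074, adjusted p 0.253), −0.24 ± 0.15 in KO (−0.56 to 0.086, 0.273) and −0.045 ± 0.15 in 3F (−0.36 to 0.27, 0.841). Of 8 other adenylate kinase genes 5 were tested and 0 were called in KO against WT in either state. Ak4, a mitochondrial member, was called higher with LPS in each genotype and rose by 3.10 ± 0.30 in WT (adjusted p 2.02e-06).

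Speg encodes a kinase of the myosin light chain kinase family that is best known in striated muscle. The gene (ENSMUSG00000026207) lies at chr1:75375297-75432320 on the plus strand, with an antisense gene, Gm15178, inside it. It had 75.3, 67.2 and 68.4 CPM in resting WT, 51.3, 45.8 and 44.7 in resting KO and 75.8, 73.4 and 79.8 in resting 3F. With LPS it had 64.8, 65.7 and 63.5 in WT, 51.0, 39.1 and 34.8 in KO and 66.2, 70.0 and 68.2 in 3F. The 6 KO libraries lay between 34.8 and 51.3 CPM, and the 12 others between 63.5 and 79.8. The difference of KO from WT was −0.57 ± 0.12 at rest and −0.64 ± 0.12 with LPS, and from 3F −0.69 ± 0.12 and −0.71 ± 0.12. Its LPS response was −0.12 ± 0.11 in WT (95% interval −0.36 to 0.12, adjusted p 0.478), −0.18 ± 0.12 in KO (−0.43 to 0.062, 0.264) and −0.16 ± 0.12 in 3F (−0.41 to 0.082, 0.299). Without LPS KO replicate 1 it was called in KO, at −0.36 (adjusted p 0.0199). In WT and 3F all LPS libraries of Speg lay below all resting ones, as for 21.6% and 20.1% of all tested genes. Every culture of each genotype was lower with LPS, by a small amount. Of 8 relatives and partners of SPEG, 3 were tested and 0 were called in KO against WT. Against 3F at rest Ttn was lower in KO (−4.12 ± 1.25, adjusted p 0.0412). Ttn ran from 0.290 to 26.0 CPM over the resting 3F libraries, against 0.337 to 0.535 in resting KO and 0.301 to 1.06 in resting WT. Mtm1 was called higher with LPS in each genotype and Ttn lower with LPS in 3F, the genotype of the resting library with 31.4 CPM of striated muscle genes, a list that holds Ttn.

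Spg11 encodes spatacsin, which helps to regenerate lysosomes. The gene (ENSMUSG00000033396) lies at chr2:122053520-122118386 on the minus strand, its start 0.431 Mb from that of Gm14085. It overlaps Eif3j1 on the other strand, and 8.5% of its 50-base stretches recur in Gm3650. It had 87.4, 97.2 and 89.2 CPM in resting WT, 60.8, 65.5 and 70.0 in resting KO and 88.9, 92.0 and 62.5 in resting 3F. Its level with LPS was 85.6, 85.6 and 91.3 in WT, 63.2, 64.5 and 66.0 in KO and 85.5, 87.4 and 92.3 in 3F. All KO libraries lay at or under 70.0 CPM, and of the 12 others only resting 3F replicate 3, the shallowest library, lay within their range, the rest being at 85.5 or above. The difference of KO from WT was −0.48 ± 0.12 at rest and −0.44 ± 0.12 with LPS, and from 3F −0.32 ± 0.12 and −0.45 ± 0.12. Without resting 3F replicate 3 the resting difference from 3F was −0.46 ± 0.078. Its LPS response was −0.061 ± 0.12 in WT (95% interval −0.31 to 0.19, adjusted p 0.747), −0.017 ± 0.12 in KO (−0.27 to 0.23, 0.932) and 0.12 ± 0.12 in 3F (−0.13 to 0.36, 0.476). Its 5 partners, Zfyve26 and the subunits of the AP-5 complex, were all tested. At rest Ap5b1 exceeded its WT level in KO by 0.70 ± 0.19 (adjusted p 0.0317), and Ap5b1, Ap5s1 and Zfyve26 were called higher in KO against 3F, a comparison in which 12.9% of all tested genes were called. With LPS 0 of the 5 were called in KO against WT. Ap5b1 also rose with LPS in WT and 3F, and in KO Zfyve26 fell by 0.49 ± 0.17 (0.0431).

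Set side by side, the LPS responses divide the 9 genes. In WT 1 of 8 genes with a fold was called (Clmp), in KO 3 of 9 (Clmp, Gm14085 and Dppa3) and in 3F 1 of 8 (Clmp), where 28.5%, 26.9% and 31.2% of all tested genes were called. Ak1, Speg and Spg11 were not called and had intervals inside −1 to 1, that is within a 2-fold change in either direction, in all 3 genotypes. Such bounded intervals were found for 57.9% of tested genes in WT, 57.2% in KO and 53.7% in 3F. The band is wider than the KO differences of Ak1, Speg and Spg11, which were −0.61, −0.57 and −0.48 against WT at rest. In KO the LPS intervals reached −0.56 for Ak1 and −0.43 for Speg. A response approaching the KO difference is thus not excluded for Ak1 and Speg. Speg was lower with LPS in every culture, and without LPS KO replicate 1 it was called in KO (−0.36, adjusted p 0.0199, edgeR quasi-likelihood). For Fzd1 and, in KO, for Plekha7 and Mns1, the intervals reached past a 2-fold change, so the data do not settle whether their level is independent of LPS. The interval of Plekha7 in KO also lay wholly above 0, from 0.024 to 1.16, and limma-voom called Plekha7 higher with LPS there (adjusted p 0.000427). Mns1 in WT and 3F had intervals wholly below 0, at adjusted p 0.0546 and 0.0511 (edgeR quasi-likelihood). Each other setting that kept all libraries called Mns1 lower with LPS there, so it is not counted as independent of LPS. The plot of LPS responses shows the 3 narrow sets of intervals around 0.

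**Figure D2:**
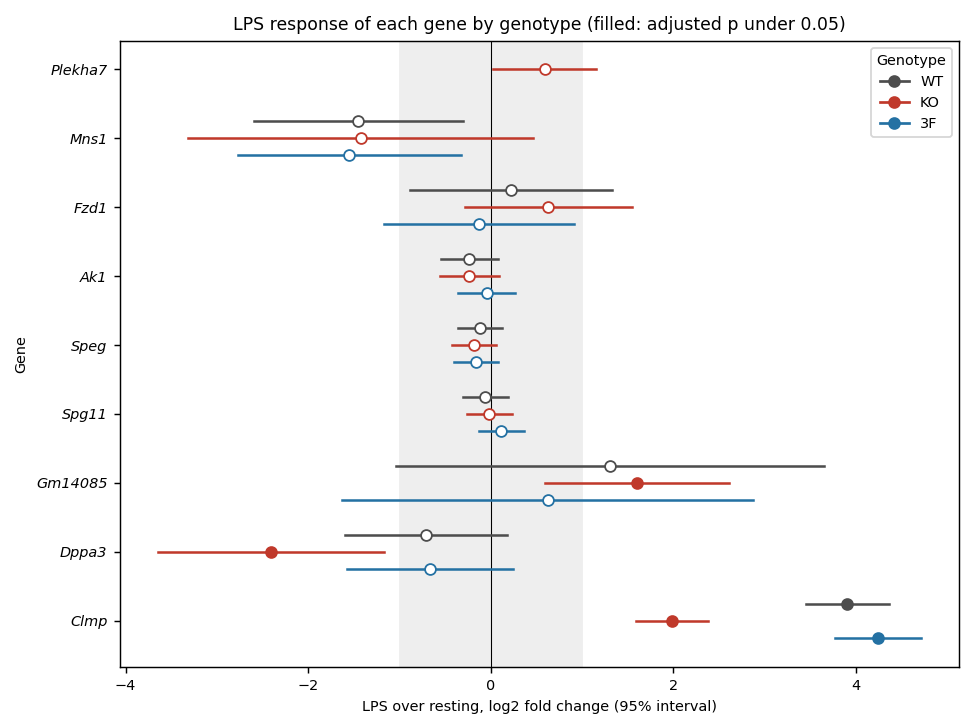
LPS response of each gene as a log2 fold change of LPS over resting libraries (horizontal axis) with its 95% interval, for WT, KO and 3F (3 libraries against 3 each); filled points are called at an adjusted p under 0.05 and the shaded band marks −1 to 1. Plekha7 has no fold in WT and 3F. All intervals of Ak1, Speg and Spg11 lie in the band, and Clmp is filled in every genotype, at 3.90 in WT, 1.98 in KO and 4.25 in 3F.

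Over both states, the 6 KO libraries were apart from the 12 others for 4 of the 9 genes, above for Plekha7 and Gm14085 and below for Ak1 and Speg. Such separation was seen for 1.25% of tested genes, which is printed for scale alone, since KO chose the genes. Plekha7, Ak1 and Speg were apart and also not called for LPS in any genotype with a fold, as were 0.863% of tested genes, while 56.2% were not called for LPS in any genotype. Plekha7 had a fold in KO alone, with an interval wholly above 0 and a call by limma-voom, so it is not counted as independent of LPS. Leaving out resting KO replicate 3, a choice made after seeing the data, Fzd1 and Dppa3 were apart as well, which makes 6 of 9. Of the 4 genes that were apart, Ak1 and Speg also had bounded LPS responses in every genotype. Spg11 had bounded responses but overlapped through a single 3F library. The KO difference was of nearly the same size in both states for Ak1, Speg and Spg11, and the fitted differences of the LPS response between KO and WT were −0.0023 ± 0.20 for Ak1, −0.064 ± 0.16 for Speg and 0.044 ± 0.16 for Spg11. A stable KO difference was among the grounds for choosing the genes, so this likeness is a description and not a test of independence from LPS. The KO difference of Clmp was smaller with LPS than at rest. That of Dppa3 was larger with LPS, but at rest it moved from −1.21 to −2.11 without resting KO replicate 3, against −2.91 with LPS. For Mns1 the counts in KO are too low to compare the states.

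**Figure D3:**
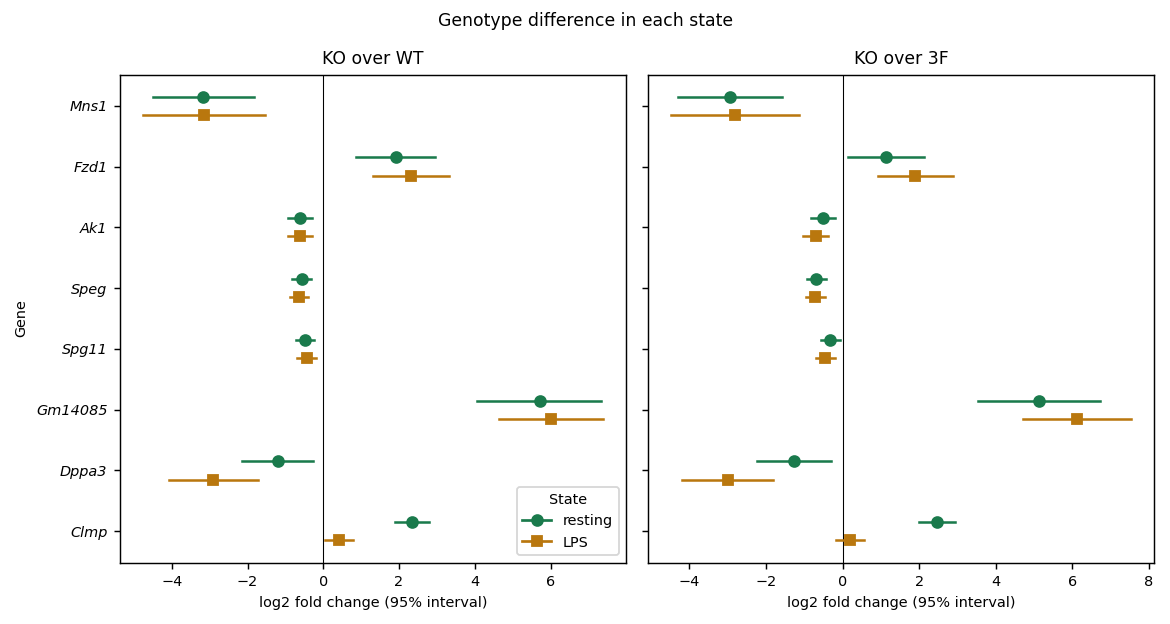
Fitted difference of KO from WT (left) and from 3F (right) as log2 fold changes with 95% intervals, at rest (green circles) and with LPS (orange squares), for 8 genes and 3 libraries against 3 each; Plekha7 is left out because its WT and 3F counts lie at or under 3 in every library. These contrasts chose the genes and carry no test. The resting and LPS values lie close for Ak1, Speg and Spg11 and part for Clmp, from 2.35 to 0.43 against WT, and for Dppa3, from −1.21 (−2.11 without resting KO replicate 3) to −2.91, and the Mns1 values have wide intervals.

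The 3F macrophages, which keep the seed of miR-146a, were compared with WT for the 8 genes with a fold. 0 were called at rest, with LPS or for the difference of the LPS response between 3F and WT by edgeR, 0 reached an unadjusted p under 0.05 (4.9%, 0.933% and 1.79% of all tested genes did), and 0 were called by DESeq2 or limma-voom. Of all tested genes 0.0% were called at rest, 0.00881% with LPS and 0.0% for the difference of responses, so a lack of calls is not particular to these genes. The fitted differences ran from −0.23 (Mns1) to 0.77 (Fzd1) at rest and from −0.33 (Mns1) to 0.41 (Fzd1) with LPS. Their intervals lay inside −1 to 1 in both states for Ak1, Speg, Spg11 and Clmp, and at rest also for Dppa3, as for 81.7% of tested genes at rest and 85.2% with LPS. For Mns1, Fzd1 and Gm14085 the intervals were wider, and the depth does not tell a 2-fold change from none. Plekha7 was at or under 3 counts in every WT and 3F library.

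The genes with the most similar pattern of log2 CPM over the 18 libraries, by Pearson's r and without a test, were Itgad (0.974) and Gdpd3 (0.972) for Plekha7, whereas by Spearman's rho Tom1l1 (0.846) and Gm9008 (0.832) were. Gm14085 was most like Trim34b (0.963) and Plekha7 itself (0.949), and Clmp most like Ppp1r12b (0.984) and Icam1 (0.982). Fzd1 was most like Map3k5 (0.874) and Cdc42bpg (0.869), Dppa3 like Gsn (0.931) and Nlrp10 (0.929), Ak1 like Cpe (0.925) and Imp4 (0.886), Speg like Lrrc27 (0.924) and Ccdc115 (0.912), and Spg11 like Galns (0.898) and 9030624J02Rik (0.892). The points of each correlation share the libraries and fall into the 6 groups, so these values mainly describe which genes share a group pattern. Ranked by Spearman's rho, 3 of the 18 genes were named again, Galns, Gsn and Icam1.

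The genes that lie near the 9 were examined next. None of the 9 lies on chromosome 11, where miR-146a is encoded. Within 1 Mb of their starts 130 other genes were tested, and 18 (13.8%) were called in KO against WT at rest and 8 (6.15%) with LPS, against 9.4% and 4.79% of all tested genes. The neighbours of Dppa3 took 7 of the 18, all higher in resting KO and including Clec4a1, Clec4a2, Clec4a3, Clec4n and Clec4e, a cluster of C-type lectin receptors. The counts depended on single libraries, with 7 to 17 called at rest and 4 to 8 with LPS when a library was left out. The lowest resting count came without resting WT replicate 2, followed by 9 without resting WT replicate 1 and 10 without resting WT replicate 3. With LPS the count was 4 without LPS WT replicate 2 or LPS KO replicate 1, and 5 without LPS KO replicate 2.

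Neighbours called in both states included Cgnl1 near Mns1, Angptl2 near Ak1, Ppip5k1 near Spg11 and Clec4a3 near Dppa3. Angptl2, a secreted angiopoietin-like protein, differed in KO from WT by −1.02 ± 0.22 at rest (adjusted p 0.00876) and −2.05 ± 0.23 with LPS (0.000134). Ppip5k1, an inositol pyrophosphate kinase, was higher by 0.54 ± 0.12 in each state (0.0106 and 0.0199), and Clec4a3 by 0.89 ± 0.17 (0.00423) and 0.70 ± 0.16 (0.0207). Tex9, which overlaps Mns1 on the other strand, was lower by −1.18 ± 0.42 (adjusted p 0.0921) and −1.41 ± 0.45 (0.0851) and was not called. In the neighbourhood of Plekha7 4 genes were tested. Of these Rps13, a ribosomal protein gene, separated the 6 KO libraries from the 12 others on the lower side, and near Gm14085 and Spg11, Gatm, an enzyme of creatine synthesis, did so on the higher side. Such separating genes, the members among them included, made up 3.33% of the genes tested on chromosome 7, 1.88% on 2, 1.12% on 9, 1.06% on 1, 0.738% on 6 and 0.687% on 5, the chromosomes that hold the 9 genes. On the other autosomes the share ran from 0.143% to 2.12%, with 1.16% on chromosome 11, against 1.25% over all tested genes.

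**Figure D4:**
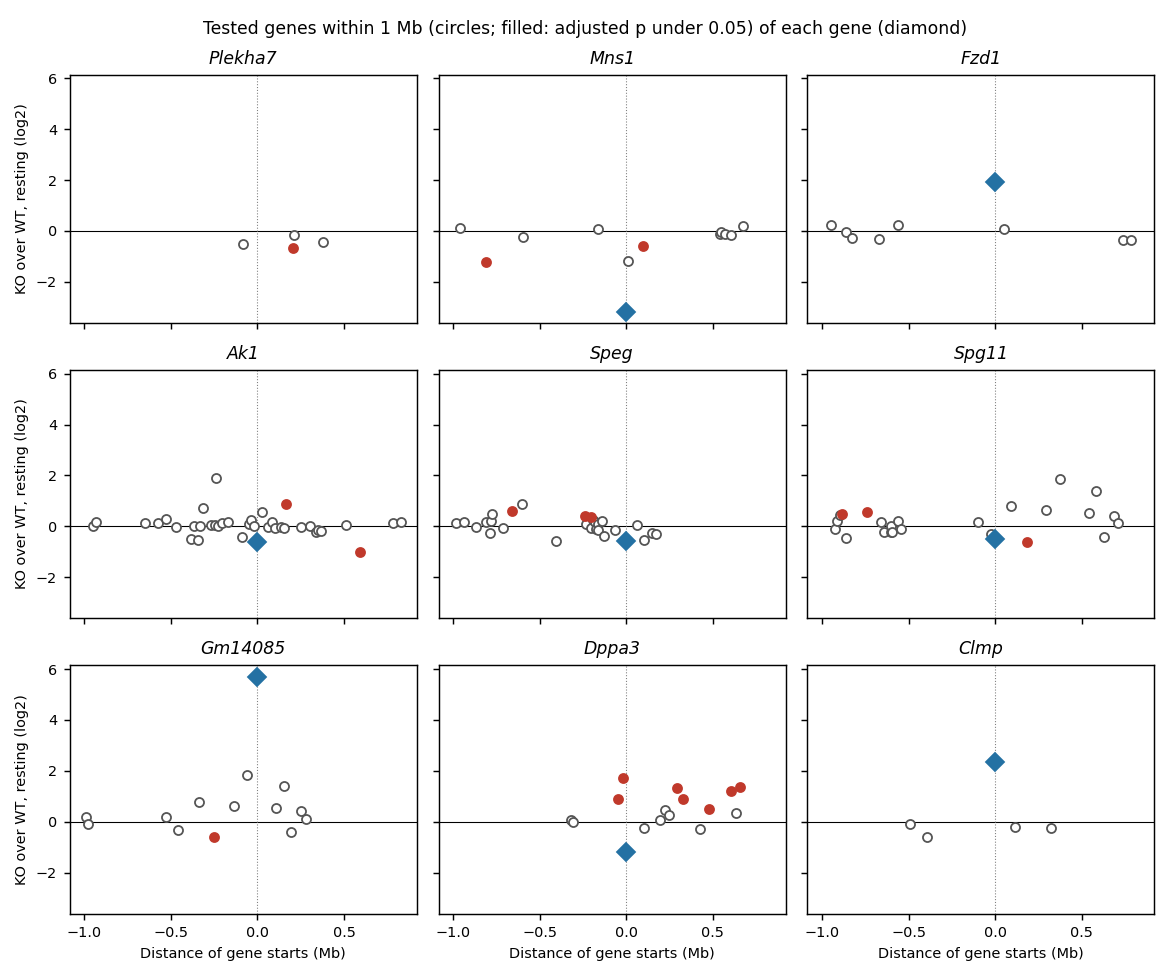
Fitted KO over WT difference at rest (vertical axis, log2 fold change, 3 libraries against 3) of tested genes by the distance of their start from that of each gene (horizontal axis, Mb); filled circles are called at an adjusted p under 0.05 and the diamond is the gene itself, left out for Plekha7. Dppa3 lies below 0 while 7 of its 15 neighbours are filled and above 0, and around Fzd1 and Clmp none is filled.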

How the data were processed

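Directional libraries were made from rRNA-depleted total RNA. Per the submitters' notes and the study's methods, the authors trimmed reads with cutadapt 1.8.3, removed ribosomal DNA reads, aligned to mm10 with HISAT2 2.1.0 and counted by strand with featureCounts 1.5.3 on Gencode M15 at a mapping quality of at least 50, which drops reads that fit several places. The deposited values are raw counts per gene, with 4071084 to 19818043 per library. The exon length deposited with them was used for levels per kb.

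Counts were analysed with edgeR 4.0.16 in R 4.3.3: filterByExpr, TMM factors (0.812 to 1.15), and a quasi-likelihood fit of all 18 libraries with a coefficient per group. P values were two-sided and adjusted by Benjamini-Hochberg over 11357 genes, with a call under 0.05. SE was the log2 fold change divided by the square root of F. No fold is given where both groups had at most 3 counts in every library, and Plekha7 ratios carry exact Clopper-Pearson intervals, which cover counting error only, since reads are not independent molecules. Replicates differed by more than sampling noise (chi-square per degree of freedom from 7.19). Coordinates come from GENCODE M21 on the same assembly, in which 21679 gene IDs were found.

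The genes, lists and naming rule were chosen with earlier results of these data known. All 9 genes are named, with the 2 genes most alike by Pearson's r, neighbours called in KO against WT in both states, and called members of 9 family lists. Other genes were named after their values were seen. A few results under these rules are not reported here. Alternatives were RLE factors, no filter, DESeq2 1.42.0, limma-voom (limma 3.58.1) with quality weights, only the groups compared, each library left out, replicate blocks, a 0.5 Mb window and Spearman's rho. Cultures with the same letter across resting and LPS come from the same mouse as far as the labels tell, and their deviations correlated from 0.028 to 0.318. Replicate numbers across genotypes name different mice. The procedure was tested on simulated data.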

Additional observations from a re-analysis of the deposited data

How the results depend on the processing

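Members called for LPS in WT and in 3F went from 1 to 2 with RLE factors, no filter, DESeq2, limma-voom or the animal as a block, and in 3F also with only the groups compared, each time by adding Mns1. With only the groups compared, Dppa3 came in too in WT (3 called), and in KO 1 remained called, Clmp, instead of 3. The animal block changed no other call for LPS. Leaving out each library gave 1 in WT throughout, 1 to 2 in 3F, and 2 to 4 in KO. Neighbours called in KO against WT numbered 18 at rest, but 30 with limma-voom, 7 with only the groups compared and 11 in a 0.5 Mb window, and 7 to 17 without single libraries. With LPS they numbered 8, but 16 with DESeq2, 30 with limma-voom, 18 with only the groups compared and 5 in a 0.5 Mb window, and 4 to 8 without single libraries. Replicate numbers as a block across genotypes, which name different mice, called 0 members in 3F against WT. The cause of these shifts was not tested.

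Uncalled values near 0 changed sign. With limma-voom Spg11's LPS response was 0.032 in KO and −0.037 in 3F, and 3F against WT at rest was 0.030 for Ak1, −0.65 for Gm14085 and −0.11 for Dppa3. With the replicate number as a block, 3F against WT with LPS was 0.059 for Gm14085. Leaving out single libraries, the LPS response ran from −1.90 to 0.0070 for Mns1 and −0.068 to 0.033 for Spg11 in KO, and in 3F from −0.46 to 0.20 for Fzd1, −0.12 to 0.053 for Ak1 and −0.074 to 0.21 for Spg11. Likewise 3F against WT at rest ran from −0.21 to 1.19 for Gm14085, −0.14 to 0.21 for Dppa3 and −0.29 to 0.030 for Clmp. With LPS it ran from −0.78 to 0.032 for Mns1, −0.017 to 0.046 for Spg11, −0.64 to 0.27 for Gm14085 and −0.034 to 0.31 for Dppa3.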
